A study of Mus musculus with 2 samples.

Results

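The 47 genes described here carry cells through DNA copying and division. They are 22 S phase genes and 25 genes of G2 and mitosis (G2/M), taken by symbol from the feature table, where all 47 were found among 55416 features. Their unique molecular identifiers (UMIs, 1 per captured RNA molecule) were read in single nuclei of whole fetal mouse brain, in 1 library labelled wildtype and 1 labelled Cav1 knockout. Cav1 encodes caveolin-1, a coat protein of small pits in the plasma membrane. The labels give the age only as fetal, and give neither the strain, the knockout allele nor the number of brains in a library. With 1 library per genotype no difference between the labels has a replicate check, so none is tested: every interval below is a 95% interval for counting error only.

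In S phase a cell copies its genome. The MCM helicase is loaded onto origins by Cdc6 and Cdt1, is fired with Cdc45 and the GINS complex, and is followed by polymerases held on DNA by the Pcna clamp. In G2 and mitosis, cyclin-dependent kinase Cdk1 with cyclins A and B, the Aurora kinases, kinesin motors, kinetochore proteins, condensins and the cytokinesis machinery pack, align and part the chromosomes. In fetal brain this happens in radial glia along the ventricles and in the intermediate progenitors they give rise to, while neurons have left the cycle. S phase genes are known to be switched on largely through E2F sites, and G2/M genes through a pair of elements, the CHR and the CCAAT box.

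After barcodes with under 500 detected genes or over 5% mitochondrial UMIs were left out, 6686 wildtype-labelled and 6680 knockout-labelled nuclei remained, with 17205381 and 19878903 UMIs and medians of 2133.5 and 2366 UMIs per nucleus. The libraries shared 10 barcodes. Where a pair of values is given below, the wildtype-labelled library comes first. Cav1 itself had 71 and 80 UMIs, so its RNA did not separate the labels, and since the allele is not described, such 3′ reads may lie outside a deleted part and then check nothing. Nuclei fell into 31 clusters, found with the members and other cycle genes left out, and 25 of these were named from marker genes. The 6 progenitor clusters were grouped into 3 types. The cortical type held 750 wildtype-labelled and 508 knockout-labelled nuclei in a radial glia-like and an intermediate progenitor-like cluster. The ganglionic eminence type held 552 and 501 nuclei in a radial glia-like and a Dlx progenitor-like cluster, and the other regions 221 and 288 nuclei in radial glia-like clusters 1 and 26.

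The levels of 1 marker per type are given next. These markers were among the genes used to assign the types, so their levels describe the types and do not check the names. Over both libraries the cortical regulator Emx1 was at 58.8 UMIs per 1000000 UMIs of the type (CPM) in the cortical type, against 12.1 in the ganglionic eminence type and 11.8 in the other regions. Dlx1, a regulator of the ganglionic eminences, was at 281 CPM in its own type and at 18.1 and 12.4 CPM in the cortical type and the other regions. Pax3, a gene of the dorsal midbrain, hindbrain and spinal cord, was at 374 CPM in the other regions and at 3.07 and 1.45 CPM in the cortical and ganglionic eminence types. Together the types made up 22.8% and 19.4% of all nuclei. A list of 7 red cell genes, markers of another cell type, was at 1069 and 818 CPM in the cortical type. It was at 1195 and 945 CPM in the ganglionic eminence type and at 844 and 672 CPM in the other regions. In the same order, 8 general neuron genes were at 2136 and 2150, 2811 and 2986, and 1841 and 1706 CPM. Genes of cortical excitatory neurons (10) were at 2577 and 2273 CPM in the ganglionic eminence type and 2225 and 2014 CPM in the other regions. Those of forebrain inhibitory neurons (11) were at 451 and 450 CPM in the cortical type and 2304 and 2119 CPM in the other regions. The part of such RNA in the results was not tested.

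Sequence around the start of each gene was read first, since the lists are known for different promoter elements. In the 300 bases from 250 before to 50 after the canonical start (GRCm39, GENCODE M39), both strands were searched for the CHR as TTTGAA or TTCGAA, for CCAAT, and for E2F as TTNNCGC, where N is any base. A CHR match lay in 16 of 25 G2/M promoters (64.0%) and in 2 of 22 S promoters (9.09%), against 18.8% of 21770 protein-coding promoters. An E2F match lay in 17 of 22 S promoters (77.3%) and 9 of 25 G2/M promoters (36.0%), against 23.2% of all. CCAAT did not separate the lists, with 15 of 22 (68.2%) and 17 of 25 (68.0%), against 39.9% of all. A CHR together with CCAAT lay in 12 of 25 G2/M promoters (48.0%), in 2 of 22 S promoters (9.09%) and in 8.25% of all. The base composition of these promoters was not matched, a match is a description and not a binding site, and the searched letters can overlap one another. The 120 bases before the start are shown for 8 members whose window holds no annotated exon, 5 of G2/M and 3 of S phase, to set the arrangements side by side, with every match in capitals, on the other strand as its reverse complement.
Ccnb2 (chr9:70328875-70328994, minus strand): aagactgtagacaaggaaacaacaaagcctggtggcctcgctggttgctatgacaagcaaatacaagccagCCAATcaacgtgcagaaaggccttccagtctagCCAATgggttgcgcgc
Aurkb (chr11:68936347-68936466, plus strand): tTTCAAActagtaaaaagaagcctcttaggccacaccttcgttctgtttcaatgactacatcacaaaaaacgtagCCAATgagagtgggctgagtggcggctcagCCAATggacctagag
Bub1 (chr2:127673807-127673926, minus strand): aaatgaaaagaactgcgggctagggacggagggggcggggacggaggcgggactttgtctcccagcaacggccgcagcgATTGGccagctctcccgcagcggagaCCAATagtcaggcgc
Diaph3 (chr14:87378708-87378827, minus strand): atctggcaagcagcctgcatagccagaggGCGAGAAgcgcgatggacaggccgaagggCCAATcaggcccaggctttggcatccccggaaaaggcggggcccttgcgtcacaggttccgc
Neil3 (chr8:54092101-54092220, minus strand): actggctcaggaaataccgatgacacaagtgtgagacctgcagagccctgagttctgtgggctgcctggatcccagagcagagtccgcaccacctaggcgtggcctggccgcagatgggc
Pola1 (chrX:92675814-92675933, minus strand): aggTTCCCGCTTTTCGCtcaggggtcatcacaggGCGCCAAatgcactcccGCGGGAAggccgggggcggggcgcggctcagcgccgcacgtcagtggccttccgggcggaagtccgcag
Mcm4 (chr16:15455265-15455384, minus strand): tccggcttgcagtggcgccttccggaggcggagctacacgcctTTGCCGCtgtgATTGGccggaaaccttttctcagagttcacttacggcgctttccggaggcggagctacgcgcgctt
Mcm3 (chr1:20890537-20890656, minus strand): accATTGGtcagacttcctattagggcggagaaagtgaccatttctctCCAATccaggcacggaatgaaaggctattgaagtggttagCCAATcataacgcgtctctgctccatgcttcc

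The promoters of Ccnb2 (cyclin B2), Aurkb (Aurora B kinase) and Bub1 (a spindle checkpoint kinase) each carry a pair of CCAAT matches close to the start. Counting the last base before the start as -1, those of Ccnb2 begin at -49 and -16, those of Bub1 at -41 and -15 and those of Aurkb at -45 and -15. Each of these genes also has a CHR match just after its start, outside the shown bases, at 43, 42 and 8. Ccnb2 and Aurkb have a further CHR match before the start, at -129 and -119. Diaph3, a formin of the actin cortex, has 1 E2F match at -91 and CCAAT matches at -62 and 9, and no CHR match. Neil3, a DNA glycosylase, has no match in the shown bases, and its CHR match begins at -202. The same stretch also holds no match and no annotated exon in Mki67, Cenpe, Ccna2, Ccnb1, Tpx2 and Anln. Ccna2 and Tpx2 have no match in the 300 bases either. At least 2 CCAAT matches lay in 10 of 25 G2/M promoters (40.0%) and 9 of 22 S promoters (40.9%), against 12.7% of all. Pola1, the catalytic subunit of the polymerase that primes DNA copies, holds 4 E2F matches between -117 and -69 and a CCAAT match at 16. Mcm3, a subunit of the helicase, holds 3 CCAAT matches in the shown bases and 3 E2F matches after its start, at 20, 40 and 43.

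The members' UMIs were concentrated in progenitors, and those of G2/M more than those of S phase. Progenitor types were 21.1% of all nuclei and held 36.3% of the S and 48.6% of the G2/M UMIs. In the wildtype-labelled library the 25 G2/M members together were at 2433 CPM in the cortical type, 2540.3 in the ganglionic eminence type and 1183 in the other regions, against 318 in cortical excitatory neuron-like nuclei. In the knockout-labelled library these levels were 2599.6, 2293, 1294 and 273 CPM. The 22 S members together were at 1035, 1089, 536 and 301 CPM in the same classes of the wildtype-labelled library and at 999.6, 1114, 493 and 277 CPM in the knockout-labelled library. Taken as whole types, both lists were thus lower in the other regions than in cortex and ganglionic eminence, in each library and beyond counting error. This did not hold for every class within the types: for G2/M, cluster 26 lay above the cortical intermediate progenitor-like class (1620 and 1544 against 1162 and 1489 CPM).

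**Figure D1:**
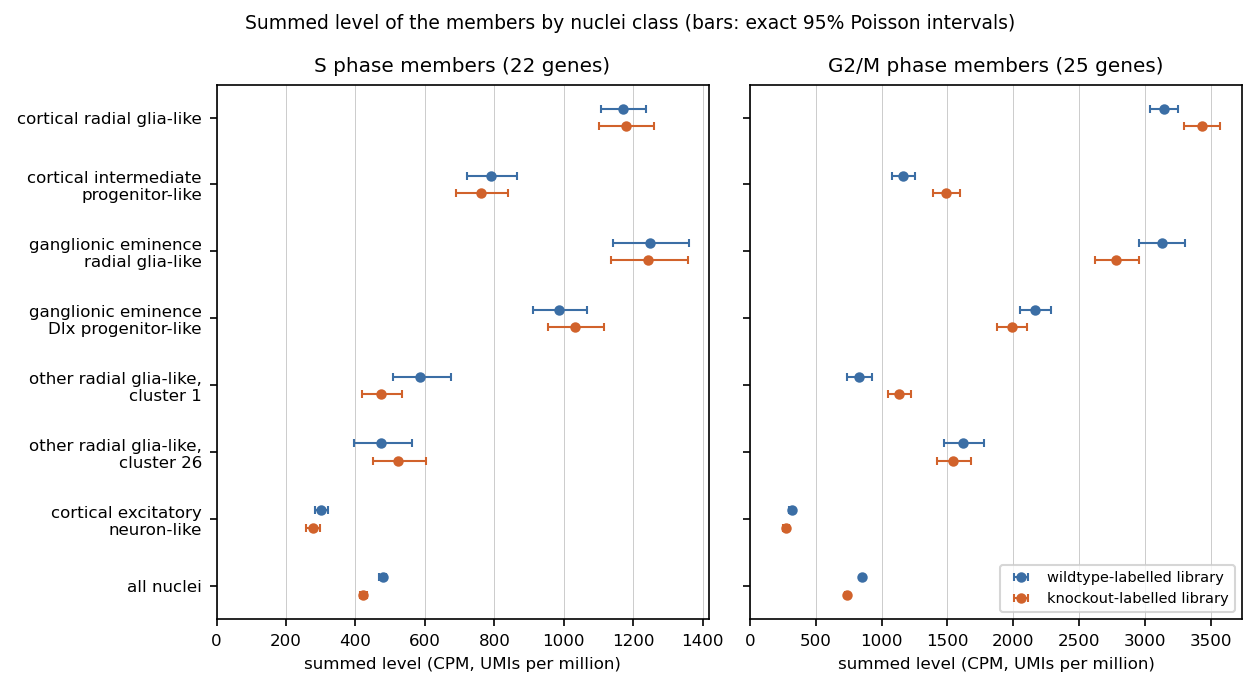
Summed level of the members in CPM (x axis) by class of nuclei, for the 22 S members (left) and the 25 G2/M members (right), with 1 point per library and exact 95% Poisson intervals as bars. Radial glia-like classes of cortex and ganglionic eminence lie furthest right on both sides, cortical excitatory neuron-like nuclei furthest left, and the points of the libraries lie close together within a class, with the widest G2/M gaps between libraries in the ganglionic eminence radial glia-like class, the intermediate progenitor-like class and cluster 1, of which the first is lower and the others higher under the knockout label.

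Within the types the radial glia-like clusters carried the most. Cortical radial glia-like nuclei (444 wildtype-labelled and 275 knockout-labelled) were at 3144 and 3433 CPM for the G2/M members, and cortical intermediate progenitor-like nuclei (306 and 233) at 1162 and 1489 CPM. Ganglionic eminence radial glia-like nuclei (195 and 180) were at 3126.5 and 2784 CPM, and Dlx progenitor-like nuclei (357 and 321) at 2167 and 1989 CPM. Among the other regions, cluster 26 was at 1620.1 and 1544 CPM and cluster 1 at 828 and 1133 CPM. The 10 leading genes of cluster 26 included Rspo1, Rspo2, Wnt3a and Wnt8b, and those of cluster 1 included Pax3. Cluster 26 was placed here on 12 of 26 markers of other regions, against 0 of 10 cortical markers. Its place in the brain was not tested further. The 2 classes of intermediate or later progenitors were thus below the radial glia-like cluster of their own region in both libraries. The G2/M UMIs for each S UMI were 2.68 (2.52 to 2.87) and 2.91 (2.69 to 3.15) in cortical radial glia-like nuclei and 1.47 (1.31 to 1.65) and 1.96 (1.73 to 2.21) in intermediate progenitor-like nuclei, against 1.06 (0.971 to 1.15) and 0.985 (0.890 to 1.09) in cortical excitatory neuron-like nuclei.

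Over all nuclei both lists were lower in the knockout-labelled library. The S members gave 8235 and 8409 UMIs, or 479 and 423 CPM, which is -0.18 (-0.22 to -0.13) as a log2 ratio of knockout-labelled over wildtype-labelled. The G2/M members gave 14710.0 and 14603 UMIs, or 855 and 735 CPM, with a ratio of -0.22 (-0.25 to -0.19). The makeup of the libraries moved with this: the share of cortical progenitors was 11.2% under the wildtype and 7.60% under the knockout label. With the 31 clusters weighted alike in both libraries (added after seeing the data) the S members were at 467 and 437 CPM (log2 ratio -0.10) and the G2/M members at 824 and 767 CPM (log2 ratio -0.10).

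Inside the types the sums went in different directions, and the processing turned some of them in sign. The G2/M sum of the cortical type was higher under the knockout label, with a log2 ratio of 0.10 (0.03 to 0.16), and lower in the ganglionic eminence type, with -0.15 (-0.23 to -0.07). The cortical ratio was -0.070 when nuclei with 200 or more genes were kept and -0.082 when cycle genes were kept in the clustering, so its direction is not settled. The ganglionic eminence ratio stayed below 0 in each of 9 alternatives, from -0.25 to -0.025. It was nearest to 0 without the 8% of nuclei with the highest doublet score. In the other regions the G2/M ratio was 0.13 (-0.01 to 0.26), and it was -0.26 with 1000 or more genes, -0.070 with 200 or more and -0.022 with cycle genes kept in the clustering. Of its 2 clusters, the ratio was 0.45 (0.25 to 0.66) in cluster 1 and -0.07 (-0.25 to 0.11) in cluster 26. Cortical intermediate progenitor-like nuclei had 0.36 (0.21 to 0.51) and cortical radial glia-like nuclei 0.13 (0.05 to 0.20). The S sums were close to level, with log2 ratios of -0.05 (-0.16 to 0.06) in the cortical type, 0.03 (-0.09 to 0.15) in the ganglionic eminence type and -0.12 (-0.33 to 0.09) in the other regions. Cortical excitatory neuron-like nuclei had a G2/M ratio of -0.22 (-0.35 to -0.09), as large in size as that of any whole progenitor type. It was smaller in size than the ratios of the intermediate progenitor-like class and cluster 1. Single nuclei of this neuron-like class had up to 14 and 17 different G2/M members, so the class was not uniformly low in them. The cause of its ratio was not tested.

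The share of nuclei with 3 or more members detected did not differ between the labels beyond counting error in any progenitor type. Nuclei with 3 or more different G2/M members were 36.1% and 36.4% of cortical progenitor nuclei, a difference of 0.28 percentage points (-5.13 to 5.70). In the ganglionic eminence type they were 30.3% and 32.1%, a difference of 1.88 points (-3.72 to 7.49), and in the other regions 18.6% and 21.5%, a difference of 2.98 points (-4.01 to 9.96). Cortical excitatory neuron-like nuclei, the background for such shares, had 4.06% and 3.23%. The shares depend on depth, so each nucleus was also thinned to 1000 UMIs, which left out 41 wildtype-labelled and 24 knockout-labelled shallower nuclei of the cortical type, 57 and 48 of the ganglionic eminence type, 8 and 8 of the other regions and 64 and 51 neuron-like ones. At that depth the shares were 26.8% and 26.7% in the cortical, 26.9% and 26.9% in the ganglionic eminence type, 13.6% and 13.9% in the other regions and 1.06% and 0.958% in the neurons. At equal depth the neurons thus stayed well below all 3 progenitor types.

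S members were detected less often together. Nuclei with 3 or more S members were 28.9% and 29.9% of cortical progenitors, 27.0% and 27.5% of the ganglionic eminence type, 17.2% and 16.0% of the other regions and 3.48% and 4.55% of cortical excitatory neuron-like nuclei, wildtype-labelled first. Thinned to 1000 UMIs these were 10.4% and 12.2%, 10.7% and 11.0%, 2.82% and 2.50%, and 0.0759% and 0.426%. None of the 3 differences between the labels left counting error, the cortical one being 1.75 points (-1.93 to 5.44) at 1000 UMIs. Other minimum numbers of S members gave 2 differences whose intervals left 0: 2 or more S members were in 13.1% and 6.43% of nuclei of the other regions thinned to 1000 UMIs, -6.72 points (-12.09 to -1.35), and 5 or more were in 7.97% and 11.6% of unthinned ganglionic eminence nuclei, 3.61 points (0.007 to 7.21). These go in opposite directions, and no G2/M difference at 2 or 5 members left 0. Many nuclei carried both lists: 3 or more of each were found in 18.4% and 19.1% of cortical, 14.5% and 16.6% of ganglionic eminence and 9.95% and 10.8% of other progenitor nuclei.

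The number of different G2/M members in a nucleus had a long upper tail in progenitors. In the cortical type 28.7% and 29.1% of nuclei had none of the 25, and 12.7% and 14.8% had 10 or more, with 20 and 21 as the highest. The ganglionic eminence type had 35.5% and 34.9% with none and 11.6% and 11.4% with 10 or more, and the other regions 37.1% and 41.0% with none and 9.05% and 9.72% with 10 or more. In cortical excitatory neuron-like nuclei 10 or more were found in 0.290% and 0.606%. For the S list, 10 or more were found in 0.933% and 0.394% of cortical progenitor nuclei. Progenitor nuclei with 3 or more G2/M members were also deeper, with medians of 2323 and 2606 UMIs against 1501 and 1768 in those with no member of either list.

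**Figure D2:**
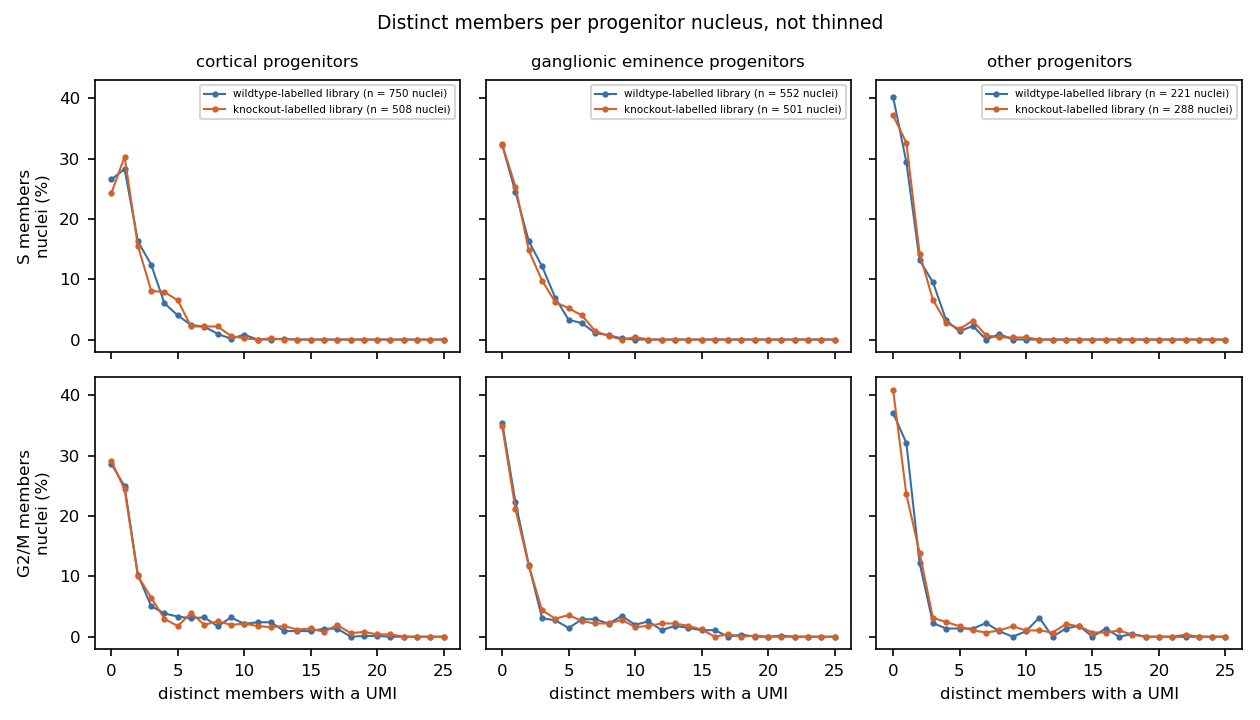
Share of nuclei in percent (y axis) by the number of different members with a UMI (x axis), for S (top) and G2/M members (bottom) in the 3 progenitor types, with 1 line per library and no thinning. The S lines reach 0 at about 10 members while the G2/M lines run on to about 20, and the lines of the libraries lie close to each other.

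Member by member, the lower level in the knockout-labelled library over all nuclei was shared by nearly all and was small for each. Of 22 S members 21 had a log2 ratio below 0, with a median of -0.18, and all 25 G2/M members were below 0, with a median of -0.22, while the median of the 15528 genes with 100 or more UMIs was -0.01. The members share nuclei and libraries, so these are not independent. Of the 47, 0 were higher by 1.5-fold or more, against 2.12% of all genes, and 2 were lower by that much, against 0.605% of all genes. With nuclei of 200 or more genes kept, 0 members were lower by 1.5-fold. The interval lay below 0 for 8 S and 11 G2/M members, against 13.2% of all genes, and above 0 for none.

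**Figure D3:**
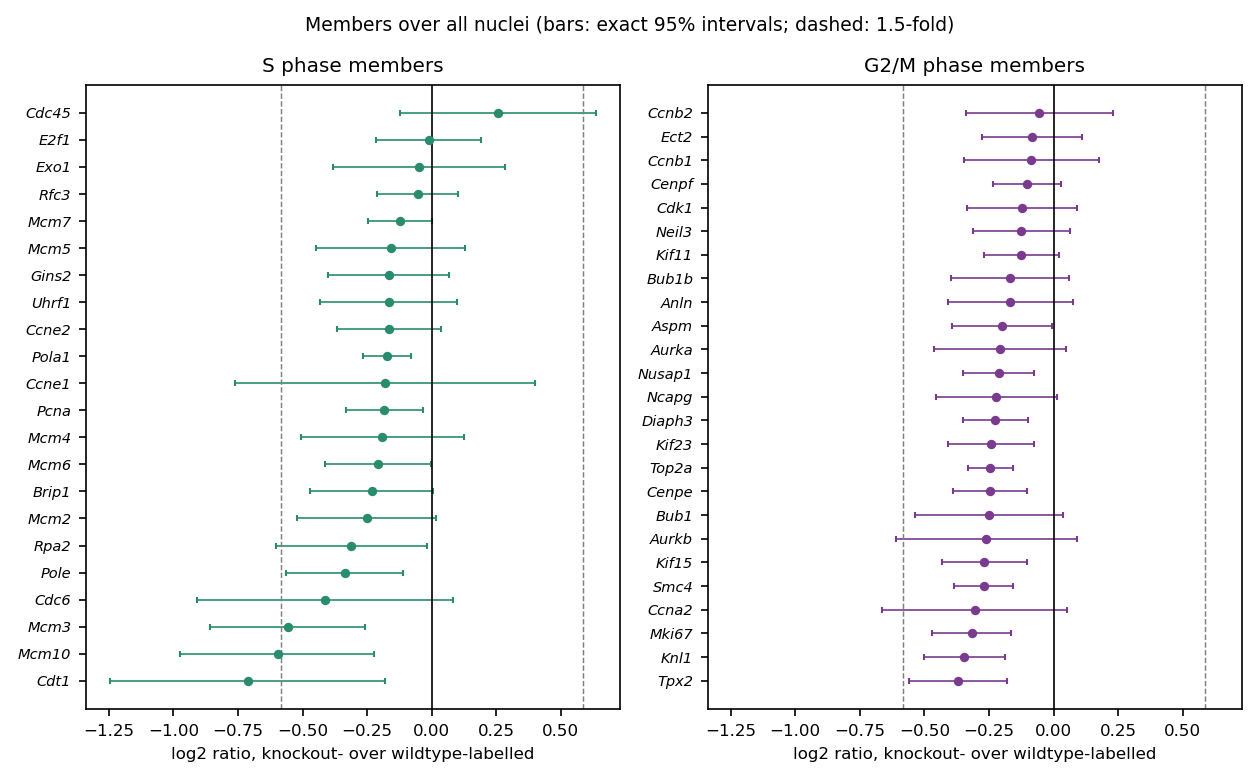
Log2 ratio of CPM, knockout-labelled over wildtype-labelled, of each member over all nuclei (points) with exact 95% intervals (bars), sorted within S (left) and G2/M (right), with dashed lines at 1.5-fold. Every G2/M point and all S points but Cdc45 lie below 0, and only Cdt1 and Mcm10 lie past the dashed line.

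Among the S members the lowest ratios were those of Cdt1, Mcm10 and Mcm3, and the highest that of Cdc45. Cdt1, a loading factor, had 75 and 53 UMIs (4.36 and 2.67 CPM), a log2 ratio of -0.71 (-1.24 to -0.18). Mcm10, which helps to fire the loaded helicase, had 140.0 and 107 UMIs (8.14 and 5.38 CPM), a log2 ratio of -0.60 (-0.97 to -0.22). These are the 2 members past 1.5-fold, and both are thinly counted. Mcm3, a helicase subunit, had 214 and 168 UMIs (12.4 and 8.45 CPM), a log2 ratio of -0.56 (-0.86 to -0.26). The other 5 subunits of the Mcm2 to Mcm7 ring lay between -0.25 and -0.12. Cdc45, which joins the ring when it fires, was the only member above 0, with 103 and 142 UMIs (5.99 and 7.14 CPM, log2 ratio 0.25, -0.12 to 0.64), an interval that includes 0. E2f1, the E2F factor that drives many S phase genes, was level with 378 and 433 UMIs (21.97 and 21.8 CPM, log2 ratio -0.01, -0.21 to 0.19), and so was the exonuclease gene Exo1 with 145 and 162 UMIs (log2 ratio -0.05, -0.38 to 0.29).

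The S members with most UMIs were nearer to the list's median. Pola1 had 1861 and 1905 UMIs, or 108 and 95.8 CPM, a log2 ratio of -0.18 (-0.27 to -0.08). Mcm7, another ring subunit, had 1027 and 1089 UMIs (59.7 and 54.8 CPM, -0.12, -0.25 to 0.00), and Pcna, the sliding clamp, 740.0 and 753 UMIs (43.0 and 37.9 CPM, -0.18, -0.33 to -0.03). Rfc3, a subunit of the loader that places the clamp, had 639 and 711 UMIs (37.1 and 35.8 CPM, -0.05, -0.21 to 0.10), and Ccne2, cyclin E2 of the G1 to S step, 406 and 418 UMIs (23.6 and 21.0 CPM, -0.17, -0.37 to 0.03). Of these 5, Pola1 and Pcna had intervals below 0. Pola1 spans 327 kb, and per kb of gene span, on the CPM scale over both libraries, it was at 0.310 while Pcna was at 9.69 and Mcm7 at 7.28, the 2 highest of all members.

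Among the G2/M members the ratios lay between -0.37 and -0.05. Top2a, the topoisomerase that untangles sister chromatids, had 2207 and 2152 UMIs, or 128 and 108 CPM, a log2 ratio of -0.24 (-0.33 to -0.16). Smc4, a condensin subunit, had 1243 and 1190.0 UMIs (72.2 and 59.9 CPM, -0.27, -0.39 to -0.16), and Diaph3 1027 and 1015 UMIs (59.7 and 51.1 CPM, -0.23, -0.35 to -0.10). Of the kinetochore and spindle genes among the 5 with most UMIs, Cenpf had 919 and 989 UMIs (53.4 and 49.8 CPM, -0.10, -0.23 to 0.03) and Nusap1 869 and 867 UMIs (50.5 and 43.6 CPM, -0.21, -0.35 to -0.07). The interval of Cenpf includes 0. The lowest ratio of the list was that of Tpx2, an activator of Aurora A on the spindle, with 480.0 and 429 UMIs (27.9 and 21.6 CPM, -0.37, -0.56 to -0.18), and the highest that of Ccnb2, with 196 and 218 UMIs (11.4 and 11.0 CPM, -0.05, -0.34 to 0.23). Per kb of gene span Top2a was the highest of the list at 3.76 CPM and Diaph3, which spans 486 kb, the lowest at 0.113.

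In cortical progenitors 31 members had 100 or more UMIs, 10 of S phase and 21 of G2/M. Of these 1 was higher in the knockout-labelled library by 1.5-fold or more, against 1.08% of all genes tested there, and 0 were lower by that much, against 1.21%. The higher one was Aurka, the Aurora A kinase of the centrosomes, with 72 and 83 UMIs, or 43.0 and 66.3 CPM, a log2 ratio of 0.62 (0.15 to 1.10). With nuclei of 200 or more genes kept, 0 cortical members were higher by 1.5-fold. The G2/M members were above 0 in 16 of 21, with a median of 0.08, and the S members below 0 in 7 of 10, with a median of -0.10, where all genes had -0.01. The interval lay above 0 for Aurka, Cenpf (210.0 and 209 UMIs, log2 ratio 0.41, 0.13 to 0.70) and Kif11, a spindle motor (226 and 207 UMIs, log2 ratio 0.29, 0.01 to 0.57), named after their values were seen, which is 3 of 31 members where 4.69% of all genes tested there had such an interval. The lowest ratio of the S list was that of Ccne2, with 76 and 46 UMIs and -0.31 (-0.87 to 0.24), and of the G2/M list that of Kif15, another spindle motor, with 181 and 111 UMIs and -0.29 (-0.64 to 0.06).

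In the ganglionic eminence type 24 members had 100 or more UMIs, 8 of S phase and 16 of G2/M. Of these 0 were higher by 1.5-fold or more, against 1.73% of all genes tested there, and 2 were lower, against 1.96%. They were Ect2, the exchange factor that starts the cleavage furrow, with 104 and 65 UMIs, or 99.1 and 63.8 CPM, a log2 ratio of -0.63 (-1.10 to -0.17), and Tpx2, with 78 and 50 UMIs, or 74.3 and 49.1 CPM, a log2 ratio of -0.60 (-1.14 to -0.07). The 2 counts are small, and without the nuclei of highest doublet score 0 members were lower by 1.5-fold. The G2/M members were below 0 in 13 of 16, with a median of -0.18, and the S members above 0 in 6 of 8, with a median of 0.09. The highest of the 24 was Brip1, a helicase of DNA repair, with 55 and 73 UMIs and a ratio of 0.45 as log2 (-0.07 to 0.98).

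In the other regions 8 members had 100 or more UMIs, 2 of S phase and 6 of G2/M. Of these 1 was higher by 1.5-fold or more, against 3.06% of all genes tested there, and 0 were lower, against 2.28%. It was Cenpf, with 33 and 82 UMIs, or 53.5 and 89.7 CPM, a log2 ratio of 0.75 (0.15 to 1.38). With nuclei of 1000 or more genes, 200 or more genes, at most 1% mitochondrial UMIs or a lower doublet score, 0 members passed. The lowest was Smc4, with 66 and 82 UMIs, or 107 and 89.7 CPM, which gives -0.25 as log2 (-0.74 to 0.24).

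Inside progenitors the members differed in how far they followed one another. Nuclei with 3 or more G2/M members other than the gene in question were set against nuclei with none, each gene left out of its own count. For the S genes these were 479 against 493 nuclei in the wildtype-labelled and 408 against 441 in the knockout-labelled library. The median G2/M member was 12.2-fold higher in wildtype-labelled and 14.8-fold higher in knockout-labelled nuclei with 3 or more others, and the median S member 1.92-fold and 2.68-fold higher. Neil3 was the most concentrated, with 273 UMIs against 2 in the wildtype-labelled library, a 96.8-fold difference (26.5 to 803), and 271 against 2 in the knockout-labelled library, a 102-fold difference (28.0 to 848). Its very wide intervals come from the 2 UMIs in the lower class.

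Most of the division machinery was concentrated in the same nuclei, by smaller folds. Top2a was 20.3-fold (14.9 to 28.3) and 25.7-fold (17.98 to 38.0) higher, on 1064 against 42 and 970.0 against 31 UMIs. Knl1, a kinetochore scaffold, was 25.8-fold (14.3 to 52.2) and 80.6-fold (27.3 to 393) higher, and Kif23, a motor of the midbody, 19.3-fold (10.9 to 37.8) and 56.0-fold (21.6 to 207) higher. Anln, the actin scaffold of the cleavage furrow, was 57.7-fold (15.7 to 480.1) and 19.7-fold (8.22 to 61.6) higher. Diaph3 was 16.3-fold (11.0 to 25.1) and 11.8-fold (8.31 to 17.4) higher. The members that followed the others least were Cdk1, the mitotic kinase itself, at 2.99-fold (1.88 to 4.94) and 3.69-fold (2.23 to 6.40), and Smc4 at 4.30-fold (3.37 to 5.53) and 5.11-fold (3.88 to 6.83).

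The S list was graded. Mcm7 was level, at 0.983-fold (0.730 to 1.33) and 1.11-fold (0.802 to 1.54), as were Rfc3 at 1.24-fold (0.853 to 1.83) and 1.03-fold (0.706 to 1.53), and Gins2, of the GINS complex, at 1.33-fold (0.754 to 2.41) and 1.28-fold (0.726 to 2.30). Pcna was 1.65-fold (1.15 to 2.39) and 1.79-fold (1.23 to 2.66) higher and Pola1 2.19-fold (1.79 to 2.71) and 2.76-fold (2.21 to 3.47) higher in nuclei with 3 or more G2/M members. Cdc45 was 2.71-fold (1.22 to 6.83) and 6.41-fold (2.55 to 20.7) higher, and Ccne1, cyclin E1, 4.20-fold (0.935 to 38.6) and 9.69-fold (1.46 to 412), the latter on 12 against 2 and 13 against 1 UMIs. The largest wildtype-labelled folds of the list were those of Brip1, Mcm10, Exo1 and Pole. Brip1 was 10.6-fold (5.59 to 22.5) and 17.5-fold (7.85 to 48.5) higher, on 151 against 10 and 141 against 6 UMIs. Mcm10 was 9.10-fold (3.71 to 29.0) higher in the wildtype-labelled library and had 38 against 1 UMI in the knockout-labelled one, 28.3-fold (4.79 to 1148). Exo1 was 7.10-fold (3.27 to 18.3) and 5.78-fold (2.76 to 14.0) higher, and Pole, the leading-strand polymerase, 6.39-fold (3.74 to 11.7) and 4.94-fold (2.91 to 8.95) higher.

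**Figure D4:**
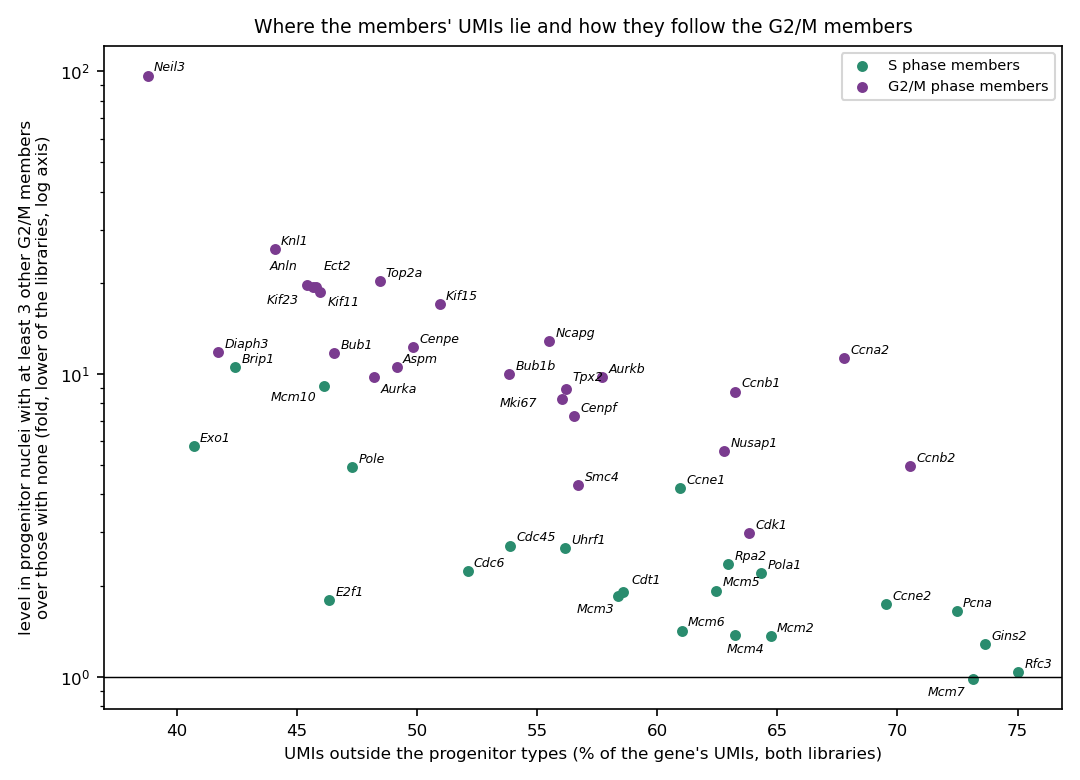
Each member's share of UMIs outside the progenitor types in percent (x axis) and its fold between progenitor nuclei with 3 or more other G2/M members and with none, the lower of the libraries, on a log axis (y axis). Neil3 stands alone at the upper left, Mcm7, Rfc3 and Gins2 at the lower right near a fold of 1, and Brip1, Mcm10, Exo1 and Pole among or near the G2/M members.

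Nuclei with S members but no G2/M member gave a second view of that order. Progenitor nuclei with 3 or more other S members and no G2/M member numbered 43 and 30 for Pola1, 61 and 42 for Pole and 59 and 46 for Brip1. Pola1 was at 357 and 380 CPM there (34 and 25 UMIs), against 94.98 and 86.2 CPM in nuclei with no other member. Pole was at 74.0 and 70.8 CPM (10 and 7 UMIs), against 2.80 and 2.64 CPM on 1 UMI each. Brip1 was at 15.3 and 17.7 CPM on 2 UMIs each, against 118 and 117 CPM in nuclei with 3 or more G2/M members. Pola1 and Pole thus stood high in both kinds of nuclei, and Brip1 in those with G2/M members, as far as so few UMIs show.

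Detection across the 1523 wildtype-labelled and 1297 knockout-labelled progenitor nuclei, which share library and depth, gave a like picture. The median correlation of detection between pairs of G2/M members was 0.242 and 0.272, between pairs of S members 0.0540 and 0.0686, and between S and G2/M members 0.0344 and 0.0422. S members were more thinly counted, with a median of 472 UMIs over all nuclei of both libraries against 909 for G2/M members. The part of this in the lower S correlations was not tested. The highest pair was Diaph3 with Top2a at 0.486 for the wildtype label and Kif23 with Kif11 at 0.553 for the knockout label. Of the 446 and 381 nuclei with a Top2a UMI, 54.3% and 58.0% had Diaph3, against 9.56% and 9.61% of the 1077 and 916 nuclei without one. Kif11 was in 45.7% and 49.3% against 5.66% and 4.04%. Mcm7 was in 17.9% and 22.8% against 16.8% and 15.2%, a gap for the knockout label and little for the wildtype label.

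The members also differed in how much of their RNA lay outside the progenitor types. The median S member had 61.0% of its UMIs there and the median G2/M member 51.0%. Of the S list, Rfc3 (75.0%), Gins2 (73.6%) and Mcm7 (73.2%) had the largest shares and Exo1 (40.7%), Brip1 (42.4%) and Mcm10 (46.2%) the smallest. Of the G2/M list, Ccnb2 (70.5%), Ccna2 (cyclin A2, 67.8%) and Cdk1 (63.8%) had the largest and Neil3 (38.8%), Diaph3 (41.7%) and Knl1 (44.1%) the smallest. Cdk1, Ccna2 and Mcm7 are among the 10 members that overlap a protein-coding gene on the other strand, Cdk1 with Ank3, Ccna2 with Exosc9 and Mcm7 with Cops6 and Ap4m1. Whether reads were assigned by strand is not given in the sources used here, so their counts are uncertain. Gins2, which overlaps Gse1, is another of the 10, and so are Cdc45, with Ufd1, Ccne2, with Ints8, Aurka, with Fam210b and Cstf1, and Nusap1, with Oip5.

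Part of this RNA lay in named clusters outside the types, so the shares depend on which clusters were named progenitors. Forebrain inhibitory cluster 6, counted with neurons, held 5.15% of G2/M and 4.86% of S UMIs. Oligodendrocyte lineage-like nuclei held 1.69% and 1.42%. A pair of unnamed clusters held a further part. Cluster 12, of 114 and 181 nuclei with medians of 6414.5 and 7887 UMIs, was 2.21% of nuclei and held 11.1% of G2/M and 8.56% of S UMIs. Its G2/M members were at 1362 and 880 CPM, a log2 ratio of -0.63 (-0.73 to -0.53). Of its nuclei with 3 or more G2/M members, 82.7% and 53.1% were among the 8% with the highest doublet score, against 10.2% and 9.80% of such nuclei in the progenitor types. Cluster 0, of 632 and 968 nuclei with medians of 740.0 and 706 UMIs and led by haemoglobin genes, had G2/M members at 1421 and 1126 CPM, a log2 ratio of -0.33 (-0.48 to -0.20). What these clusters are was not determined. Without both of them (chosen after seeing the data) the log2 ratio over the rest was -0.16 for the S and -0.19 for the G2/M members.

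Other genes of the cycle, from lists of its textbook genes, behaved much as the members did. Over all nuclei, of 54 further S genes 0 were higher and 1 lower by 1.5-fold or more, against 2.12% and 0.605% of all genes, with 48 below 0 and a median of -0.17. The lowest were Rpa3, of the single-strand binding complex, with 538 and 393 UMIs (-0.66, -0.85 to -0.47), and Chaf1b, a histone chaperone subunit, with 122 and 104 UMIs (-0.44, -0.83 to -0.05). The highest were Gins4 (175 and 221 UMIs, 0.13, -0.16 to 0.42) and Ticrr (190.0 and 236 UMIs, 0.10, -0.18 to 0.39), both needed to fire origins. Of 69 further G2/M genes 0 were higher and 1 lower, read against the same shares, with 66 below 0 and a median of -0.19. Spdl1, a kinetochore adaptor, was the lowest with 212 and 157 UMIs (-0.64, -0.95 to -0.34), followed by Iqgap3 with 126 and 103 (-0.50, -0.89 to -0.11). Espl1, the protease separase, was the highest with 118 and 163 UMIs (0.26, -0.09 to 0.61), followed by the cytokinesis kinase Cit with 556 and 696 (0.12, -0.05 to 0.28).

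Genes of the G1 step were mostly below 0 as well, while the inhibitors lay on both sides. Of 18 genes for G1 cyclins and E2F proteins 15 were below 0 and 0 passed 1.5-fold, where 2.12% of all genes were higher and 0.605% lower. Ccnd2, a cyclin D of progenitors, had 2295 and 2084 UMIs (133 and 105 CPM), a log2 ratio of -0.35 (-0.43 to -0.26), and E2f2 182 and 161 UMIs (-0.39, -0.70 to -0.07). E2f5, a repressive E2F, had 460.0 and 620.0 UMIs (0.22, 0.05 to 0.40), and Ccnd3 249 and 306 (0.09, -0.16 to 0.34). Of 9 cycle inhibitors 6 had 100 or more UMIs and 0 passed 1.5-fold against those same shares, with 4 below 0. Cdkn1c, the p57 inhibitor of cyclin-dependent kinases, had 1144 and 1642 UMIs (66.5 and 82.6 CPM, 0.31, 0.20 to 0.42) and Cdkn2d 259 and 366 UMIs (0.29, 0.06 to 0.53). Cdkn2c had 89 and 92 UMIs (-0.16, -0.60 to 0.28), and the antiproliferative gene Btg2 591 and 612 (-0.16, -0.32 to 0.01). Progenitor nuclei with 3 or more G2/M members were also set against those with none. At least 2-fold higher in both libraries were 62 of 69 further G2/M genes, 31 of 54 further S genes, 5 of 18 G1 genes and 1 of 6 inhibitors. Of all genes with 100 or more UMIs in progenitors, 314 of 8013 were. The list genes were taken on 100 or more UMIs over all nuclei, so the 2 bases are not quite alike.

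Genes on none of the cycle lists were searched for the same pattern, over 8013 genes with 100 or more UMIs in progenitors. Of these 314 were at least 2-fold higher in both libraries in nuclei with 3 or more G2/M members than in those with none, and 120 of the 314 were on a cycle list. The 50 with the largest folds, taking the lower library, held 35 listed genes, 22 of them members, which helped to choose the nuclei. The first of the 15 unlisted ones was Ccnf, cyclin F, a subunit of a ubiquitin ligase, with 138 against 2 UMIs in the wildtype-labelled library (48.3-fold, 13.1 to 403) and 129 against 2 in the knockout-labelled one (48.1-fold, 13.0 to 401). Depdc1a had 131 against 1 and 93 against 3 UMIs (91.7-fold, 16.2 to 3648, and 23.1-fold, 7.67 to 114), and Depdc1b 106 against 1 and 91 against 1. Troap had 94 against 0 and 76 against 1, Rtkn2 80 against 3 and 110.0 against 1, and the kinesin gene Kifc5b 101 against 4 and 111 against 3. These counts show genes that are nearly absent from progenitor nuclei without G2/M members.

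The other 4 of the first 10 unlisted genes lie across a cycle or centromere gene on the other strand. Since the use of strand in counting is not given, their UMIs may be that gene's, and their counts are uncertain. Gm3550, opposite Cdc25c, had 142 against 0 and 128 against 0 UMIs. With 3 UMIs put in a library's lower class as the floor, this was 33.1-fold and 31.8-fold higher. The lower interval limits of its folds were 26.6 and 25.5. Kctd18, opposite the cohesin protector Sgo2a, had 501 against 18 and 511 against 20 UMIs (19.5-fold, 12.2 to 33.1, and 19.0-fold, 12.2 to 31.5). Gm14091, opposite Knstrn and Ivd, had 80 against 0 and 79 against 1, and Omd, opposite the centromere gene Cenpp, 83 against 1 and 69 against 3. In the other direction, the lowest by the higher library were Cntnap5c with 12 against 64 and 20 against 53 UMIs (0.131-fold and 0.281-fold), Kcnmb2 with 12 against 30 and 16 against 42, and Synpr with 32 against 73 and 29 against 74, genes of neurons and synapses, named after their values were seen.

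The CHR and CCAAT matches were also counted in these wider lists, since the members are few. A CHR match lay in 35 of 69 further G2/M promoters (50.7%) and 4 of 54 further S promoters (7.41%), against 18.8% of all protein-coding promoters. An E2F match lay in 36 of 69 (52.2%) and 31 of 54 (57.4%), against 23.2% of all. CCAAT lay in 62.3% and 51.9%, against 39.9% of all, and a CHR together with CCAAT in 37.7% and 3.70%, against 8.25%. The CHR thus separated the wider lists as it did the members. The E2F letters did so less, and in both wider lists they were above the share of all promoters.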

How the data were processed

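Single-nucleus 3′ libraries (10x Genomics) of whole fetal mouse brain were deposited as UMI counts per gene and barcode, 1 library per genotype. The authors' counts carry Cell Ranger 6.1.1 per the file headers, while the submitters' processing notes name Cell Ranger 3.0.1, STAR and GRCm39, so the version is uncertain. Whether introns or strand were used in counting is not given in the sources used here.

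Barcodes with under 500 genes (2969 wildtype-labelled, 3904 knockout-labelled) or over 5% mitochondrial UMIs (108 and 227) were left out. Nuclei were clustered with scanpy 1.11.5 (2000 variable genes per library, without the cycle lists; 30 components, 15 neighbours, Leiden resolution 2). Clusters were named from marker lists, with naming thresholds set after the clusters were seen; the names are rebuilt and are not the authors'. Scrublet's automatic threshold marked 0 nuclei in each library, so no doublets were removed, and leaving out the 8% with the highest score was an alternative. Levels are UMIs per 1000000 UMIs of the class (CPM). Intervals are exact (Poisson, Clopper-Pearson for shares, conditional binomial for ratios) with numpy 2.4.6 and scipy 1.17.1; that of a difference between shares is a normal approximation. They cover counting error only. With 1 library per genotype there is no test, and a gene is counted as higher or lower past 1.5-fold on 100 or more UMIs. The script was tested on simulated data.

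The members and lists were chosen with earlier results of these data known. Named with values were, per list, the 5 members with most UMIs, those with the 3 highest and 3 lowest ratios over all 47 and the extremes by type and by share outside progenitors, the 2 highest and lowest ratios of each wider list, and the 10 unlisted genes with the largest folds; any other gene with values was chosen after they were seen. Promoters were read from GRCm39 with the GENCODE M39 annotation.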

Additional observations from a re-analysis of the deposited data

How the results depend on the processing

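No paired analysis was possible because each genotype has 1 library. Over all nuclei both sums were below 0 under each of 7 alternatives, from -0.18 to -0.10 (log2) for S and from -0.25 to -0.10 for G2/M. The G2/M ratio was -0.25 without the 8% of nuclei with the highest Scrublet score, and with clusters weighted alike both ratios were -0.10; that alternative, leaving out unnamed clusters 0 and 12, and keeping radial glia-like clusters alone were chosen after seeing the data. The 2 members lower by 1.5-fold over all nuclei were 0 with 200 or more genes, 1 under scaling by the median of gene ratios, 0 at 2-fold and 1 without clusters 0 and 12.

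In the cortical type the G2/M ratio of 0.10 was -0.070 with 200 or more genes and -0.082 with cycle genes kept among the variable genes, both turned in sign, and was 0.17 with at most 1% mitochondrial UMIs and 0.011 at Leiden resolution 1. The cortical S ratio was -0.20 with 200 or more genes. The 1 higher cortical member became 2 with 1000 or more genes, 0 with 200 or more genes, 0 at 2-fold and 3 with a minimum of 20 UMIs, where 1 was lower. In the ganglionic eminence type the S ratio was -0.13 with 200 or more genes and -0.10 at resolution 1. Its G2/M ratio was -0.025 without the highest Scrublet scores and -0.25 with cycle genes kept. Its 0 higher members became 1 without the highest scores and 1 at 20 UMIs, and its 2 lower ones 1 with 1000 or more genes, 1 with 200 or more genes, 1 with at most 1% mitochondrial UMIs, 0 without the highest scores and 0 at 2-fold. The difference in its share of nuclei with 3 or more G2/M members was -4.96 points when thinned to 2000 UMIs, within counting error. In the other regions the G2/M ratio was -0.26 with 1000 or more genes, -0.070 with 200 or more genes and -0.022 with cycle genes kept. There the 1 higher member became 0 with 1000 or more genes, 0 with 200 or more genes, 0 with at most 1% mitochondrial UMIs, 0 without the highest scores, 0 at 2-fold and 7 at 20 UMIs, where 1 was lower. The cause of these changes was not tested.

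At resolution 1 no cluster was named as the other regions. Of the 47 members over all nuclei 43 kept their sign in 5 settings, and Rfc3, E2f1, Ccnb1 and Cdk1 changed it in at least 1. Depth limits the thinly counted members: Ccne1, the lowest with 105 UMIs, had an interval from -0.76 to 0.40 over all nuclei.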

Other observations

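Outside brain progenitors the levels of the G2/M members in small classes of other cells ranged widely and rest on few nuclei. Oligodendrocyte lineage-like nuclei (21 wildtype-labelled and 46 knockout-labelled) had the 25 genes together at 1593 and 2451 CPM, a log2 ratio of 0.62 (0.29 to 0.97). Mural cell-like nuclei (34 and 40) had 1247 and 1787 CPM, a log2 ratio of 0.52 (0.20 to 0.85), and microglia or macrophage-like nuclei (26 and 17) 2045 and 735 CPM, a log2 ratio of -1.48 (-1.94 to -1.04). Endothelial cell-like nuclei (48 and 64) had 992 and 736 CPM, and fibroblast-like nuclei (108 and 110) 1199 and 919 CPM. Choroid plexus epithelium-like nuclei (36 and 36) had 415 and 742 CPM, a log2 ratio of 0.84 (0.34 to 1.34). Over all nuclei the level was 855 and 735 CPM. Forebrain inhibitory cluster 6 (382 and 338 nuclei), which is counted with neurons, had 1256 and 941 CPM, a log2 ratio of -0.42 (-0.57 to -0.27), well above cortical excitatory neuron-like nuclei at 318 and 273 CPM. These intervals cover counting error only, and none of these differences has a replicate.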
